A study of Mus musculus with 2 samples.

Results

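The genes described here are the mouse Vps, Snx, Stx, Vamp and Chmp families, which encode much of the machinery that sorts membrane cargo through endosomes and lysosomes. Members are protein-coding genes whose symbol is one of these 5 stems followed directly by a digit, and the rule uses names alone, although the families were proposed with earlier results of these data known. In the GENCODE M21 annotation 98 genes meet this rule. A row in the deposited count table was found for 96 of them, out of 49585 gene rows: 34 Vps, 30 Snx, 15 Stx, 7 Vamp and 10 Chmp genes. The other 2 genes were not analysed here.

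The samples were CD11b+ myeloid cells taken with magnetic beads from subcutaneous tumours that had grown from mouse pancreatic cancer cell lines. Both groups were NRP2f/fCSF1R-iCRE mice on a BL6 background, so all animals carried floxed Nrp2 alleles and the iCRE transgene, whose Cre expression follows the Csf1r promoter, an element used by cells of the monocyte and macrophage lineage. The test group (NRP2 KO) received daily tamoxifen injections once tumours could be felt, and tumours were taken at 15 days. The labels name no tamoxifen for the control group, so the drug and the deletion cannot be told apart. RNA of 3 animals was pooled into 1 library per group, and the sources used here give neither ages nor the number of cell lines.

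Membrane proteins taken up by phagocytosis or endocytosis reach early endosomes, from which they are recycled or passed on to lysosomes. Retromer, made of VPS35, VPS29 and a VPS26 protein, and the sorting nexins return receptors to the Golgi or the cell surface. The ESCRT complexes, which end in the CHMP filaments and the VPS4 ATPase, bud cargo into the lumen of multivesicular bodies and repair membranes. HOPS and CORVET tether endosomes and lysosomes, and SNARE proteins such as the syntaxins (Stx) and VAMPs then drive fusion. Macrophages depend on these steps to mature phagosomes and to secrete cytokines.

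Reads assigned to genes numbered 64153676 (control) and 68554172 (NRP2 KO). A group is 1 library, so differences were not checked against replicates and p-values were not computed. Reads of one molecule can be counted many times: where a gene had over 4 reads in a single library and 0 in its counterpart, the median was 47 reads (control) or 24 (NRP2 KO). Counts were divided by these values to approximate fragments before the 95% exact Clopper-Pearson interval of each ratio, given in parentheses throughout, was taken. These intervals cover counting error and leave out the variation from animal to animal. The floor for a gene at 0 is 3 fragments, which is 141 reads in the control and 72 in the NRP2 KO library. The targeted gene, Nrp2, had 9686 and 1017 reads, or 148 and 15.2 CPM (counts scaled to normalised library size), and was 9.72-fold lower in the NRP2 KO library (6.95 to 13.9).

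Promoter windows are shown for members of the tethering, retromer and SNARE groups, because many lysosomal genes are known to carry the palindrome TCACGTGA, the core of the motif bound by the transcription factor TFEB. The RefSeq promoter table (GRCm38.p6) held windows of 300 bases for 68 of the 96 members. The palindrome stood in windows of 4 members, Vps33a, Vps16, Vps26a and Stx6, and its 6-base core CACGTG in windows of 9 members. A palindrome reads the same on both strands, and every TCACGTGA also counts as a CACGTG. By windows, 5 of the 84 member windows (5.95%) held TCACGTGA and 10 (11.9%) held CACGTG, against 0.974% and 7.15% of all 32851 windows of the same length. The 250 bases before each start are printed 5′ to 3′ on the gene's strand, with TCACGTGA in capitals. The windows are chr5:123573016-123573265 (minus strand) for Vps33a, chr2:130424070-130424319 (plus) for Vps16, chr10:62486806-62487055 (minus) for Vps26a, chr1:155158453-155158702 (plus) for Stx6, chr2:119288492-119288741 (plus) for Vps18 and chr3:96058456-96058705 (minus) for Vps45.
Vps33a: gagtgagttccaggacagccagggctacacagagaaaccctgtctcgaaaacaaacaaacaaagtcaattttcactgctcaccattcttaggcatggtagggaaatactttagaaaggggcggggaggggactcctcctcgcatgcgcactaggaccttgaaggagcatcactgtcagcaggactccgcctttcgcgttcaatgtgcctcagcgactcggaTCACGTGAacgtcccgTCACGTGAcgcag
Vps16: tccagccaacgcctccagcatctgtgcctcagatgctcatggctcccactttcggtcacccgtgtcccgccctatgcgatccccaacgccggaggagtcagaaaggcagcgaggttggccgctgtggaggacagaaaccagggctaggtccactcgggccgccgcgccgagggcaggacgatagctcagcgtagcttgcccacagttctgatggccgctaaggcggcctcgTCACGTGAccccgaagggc
Vps26a: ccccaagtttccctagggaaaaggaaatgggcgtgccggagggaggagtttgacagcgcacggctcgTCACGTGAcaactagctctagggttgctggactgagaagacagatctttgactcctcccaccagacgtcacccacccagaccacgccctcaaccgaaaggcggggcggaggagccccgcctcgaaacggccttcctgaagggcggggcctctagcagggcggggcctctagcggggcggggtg
Stx6: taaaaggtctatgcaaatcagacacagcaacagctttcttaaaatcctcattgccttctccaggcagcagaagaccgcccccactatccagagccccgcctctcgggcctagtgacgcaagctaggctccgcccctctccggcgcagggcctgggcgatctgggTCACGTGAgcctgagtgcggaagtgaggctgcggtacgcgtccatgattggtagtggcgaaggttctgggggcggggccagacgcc
Vps18: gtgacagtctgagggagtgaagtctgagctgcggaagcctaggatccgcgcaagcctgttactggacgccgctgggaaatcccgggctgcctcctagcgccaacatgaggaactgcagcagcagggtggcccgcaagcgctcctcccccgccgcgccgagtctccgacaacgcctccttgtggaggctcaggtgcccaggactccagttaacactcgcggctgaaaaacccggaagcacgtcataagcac
Vps45: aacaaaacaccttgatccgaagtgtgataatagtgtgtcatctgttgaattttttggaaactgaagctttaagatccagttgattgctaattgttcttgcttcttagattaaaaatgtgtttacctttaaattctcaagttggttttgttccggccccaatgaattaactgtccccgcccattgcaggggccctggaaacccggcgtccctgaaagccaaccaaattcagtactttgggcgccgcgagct
The Vps33a window holds the palindrome at 25 and again at 9 bases before the start. In the other 3 it is centred 15 (Vps16), 179 (Vps26a) and 82 (Stx6) bases before it. The windows of Vps18 and Vps45, which differed most between the libraries among those printed, do not hold these letters. The 4 genes with the palindrome had log2 ratios of -0.11 (Vps33a), 0.11 (Vps16), 0.29 (Vps26a) and -0.03 (Stx6), all within 1.5-fold. Most genes were: among those with at least 1000 reads, 70 of 81 members and 6710 of all 9054 genes lay within 1.5-fold. A link of the motif with the ratios was not tested.

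Of the 96 members, 89 had at least 50 reads over both libraries and 81 had at least 1000. Measured this way, 0 of 89 members were at least 2-fold higher in the NRP2 KO library, where 10.8% of all 14420 genes measured were. The members at least 2-fold lower were 3, among them Vps45 and Snx15, or 3.37% against 14.7% of all genes. At least 1000 reads were found for 81 of the 89 members but for 9054 of the 14420 genes. The 2-fold shares therefore compare unlike read depths. Among the 81 members with at least 1000 reads, 9 (11.1%) passed 1.5-fold higher, against 14.6% of 9054 genes. Past 1.5-fold lower were 2 members (2.47%), Vps45 and Snx15, against 11.3%. The middle 50% of these 81 log2 ratios lay between -0.11 and 0.30, against -0.28 and 0.37 for 8897 protein-coding genes. The interval of the ratio lay above 1 for 17 of 89 members and below 1 for 11 (19.1% and 12.4%), against 12.6% and 11.1% of all genes. Intervals narrow as reads rise, so these shares too compare unlike read depths. No interval share over genes with at least 1000 reads is given here, so no excess among the members can be read from them. The split of higher and lower members moved with the scaling: under upper-quartile factors 5 passed 1.5-fold higher and 4 passed 1.5-fold lower, and 9 intervals lay above 1 and 11 below. The 8 genes whose interval then included 1 were Vps35, Vps26a, Vps53, Snx13, Snx24, Snx30, Stx3 and Chmp1a. The shares over all genes given above are for TMM scaling alone. In these pooled cells, fewer cells of one type and less RNA per cell cannot be told apart.

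**Figure D1:**
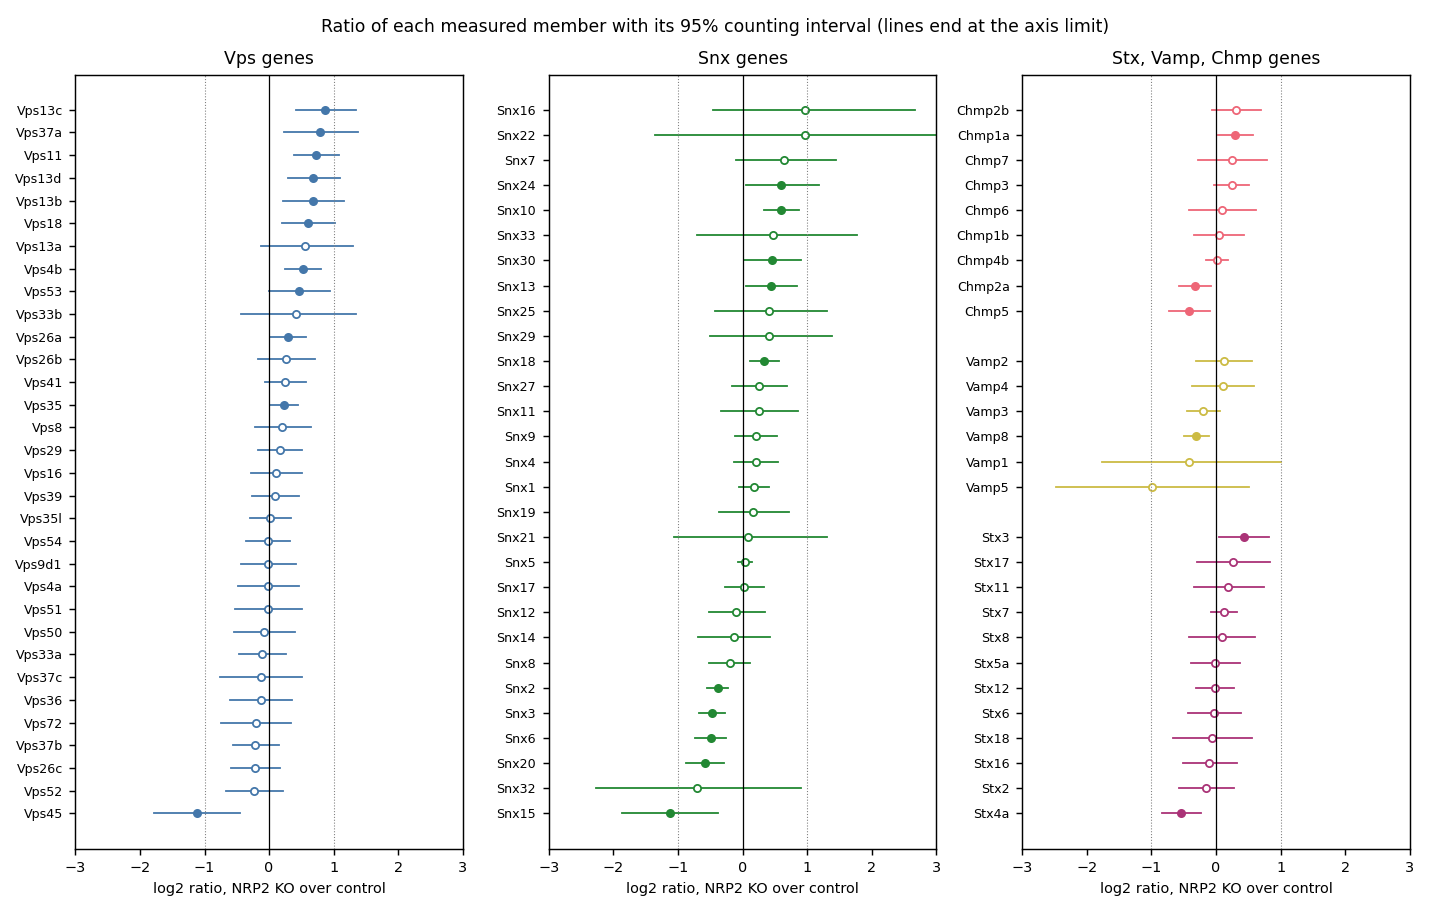
Log2 ratio, NRP2 KO over control, of 88 of the 89 members with at least 50 reads, coloured by family in 3 panels, with lines ending at the axis limit. Points are ratios, lines are 95% counting intervals, filled points have intervals that leave out 1, and dotted lines mark 2-fold. Vps45 and Snx15 lie beyond 2-fold lower, and none of the genes drawn lies beyond 2-fold higher.

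The families differed little in their centre. The median log2 ratio was 0.14 for 32 Vps, 0.21 for 29 Snx, -0.02 for 13 Stx, -0.25 for 6 Vamp and 0.09 for 9 Chmp genes, against -0.01 for all genes measured and 0.04 for those with at least 1000 reads. The Vamp median was -0.05 on the 4 members with at least 1000 reads. Summed over a family, levels were 1851 and 2140 CPM for Vps, 2792 and 2767 CPM for Snx, 848 and 846 CPM for Stx, 492 and 428 CPM for Vamp, and 970 and 985 CPM for Chmp in the control and NRP2 KO libraries. The ratio of these sums ran from 0.871 (Vamp) to 1.16 (Vps).

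The 4 VPS13 genes, which encode very large proteins that carry lipids between membranes at contact sites, were all higher in the NRP2 KO library. Vps13c (chr9:67840396-67995638), whose protein sits at contacts of the endoplasmic reticulum with late endosomes and lysosomes, had 2353 and 4385 reads, or 35.8 and 65.5 CPM. It was 1.83-fold higher (1.33 to 2.55), just outside 2-fold and the largest ratio among Vps genes with at least 1000 reads. Vps13d, known for mitochondrial and peroxisomal upkeep, stood at 50.7 and 81.6 CPM, 1.61-fold higher (1.23 to 2.13). Vps13b, a Golgi protein mutated in Cohen syndrome, stood at 37.0 and 59.2 CPM, 1.60-fold higher (1.16 to 2.23). Its exons overlap Cox6c on the other strand, and no source used here says if reads were counted by strand. Vps13a, at 17.1 and 25.2 CPM, had a ratio of 1.48 with an interval of 0.916 to 2.46 that includes 1. The 4 genes together summed to 141 and 231 CPM.

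These 4 genes have the longest transcripts of the members, at 10838 to 15849 bases, and over all genes the ratio was higher in longer transcript classes. Among protein-coding genes with at least 1000 reads, the median log2 ratio was -0.15 for 1219 genes under 1500 bases, 0.08 for 2851 genes of 3000 to under 5000 bases, and 0.37 for 205 genes of 10000 bases or more. Of these 205 long genes, 84.4% had a lower ratio than Vps13c, 73.7% than Vps13d, 73.2% than Vps13b and 64.4% than Vps13a. With the median of its length class subtracted, Vps13c kept a log2 difference of 0.50 and no VPS13 gene remained past 1.5-fold. That step left 4 members at least 1.5-fold higher, Snx7, Vps11, Snx24 and Snx10, and the same 2 lower, Snx15 and Vps45. These were 4.94% and 2.47% of 81 members, against 11.5% and 11.9% of 8897 protein-coding genes. The interval of the Snx7 ratio without that step (0.927 to 2.71) includes 1. The part of length in the VPS13 ratios was not tested.

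**Figure D2:**
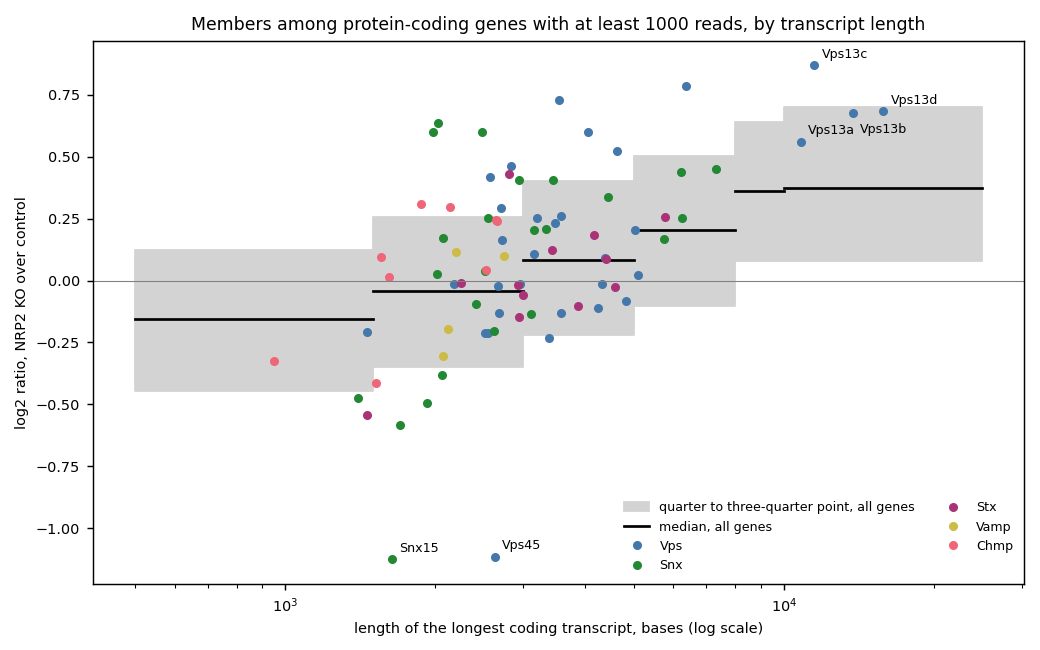
Log2 ratio (vertical axis) against length of the longest coding transcript in bases (log axis) for the 81 members with at least 1000 reads, coloured by family. Black lines and grey bands give the median and the middle 50% of protein-coding genes with at least 1000 reads in each length class. The medians step up from -0.15 in the shortest class to 0.37 in the longest, where the 4 VPS13 genes lie at 0.56 to 0.87.

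Among the tethering genes, the RING-domain core subunits of HOPS and CORVET were higher. Vps11 (chr9:44347749-44361670) had 4306 and 7290 reads, 65.6 and 108.8 CPM, and was 1.66-fold higher (1.31 to 2.12). Vps18 (chr2:119288740-119298453) had 3164 and 4894 reads, 48.2 and 73.1 CPM, and was 1.52-fold higher (1.15 to 2.03), but under 1.5-fold with upper-quartile factors. The remaining core subunits Vps16 and Vps33a, the latter an SM-type protein that templates SNAREs, had ratios of 1.08 (0.824 to 1.42) and 0.926 (0.72 to 1.2). The HOPS subunits Vps39 and Vps41 were at 1.07 (0.832 to 1.38) and 1.19 (0.96 to 1.49). Vps8, of CORVET, was at 1.15 (0.855 to 1.56). Vps33b, which pairs with VIPAS39 in a separate tether, was the least read at 11.5 and 15.4 CPM, with an interval of 0.738 to 2.54. Its partner Vipas39 stood at 88.5 and 67.8 CPM, 1.31-fold lower (1.03 to 1.65). Over the 10 genes of these tethers, 2 were at least 1.5-fold higher and 0 lower, against 14.6% and 11.3% of all genes with at least 1000 reads, so the count is near that share. Their median log2 ratio was 0.23.

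All 4 retromer genes had ratios slightly above 1. Vps35, the scaffold subunit and the most read Vps gene, had 12425 and 14877 reads, or 189 and 222 CPM, and was 1.17-fold higher (1.01 to 1.36). Vps26a had 7103 and 8886 reads and was 1.23-fold higher (1.01 to 1.49), while Vps26b (1.20) and Vps29 (1.12) had intervals that include 1. Under upper-quartile factors, which lower every log2 ratio by 0.06, the log2 ratios of Vps35 and Vps26a were 0.17 and 0.24, and both intervals included 1 (lower limits 0.975 and 0.972). The retriever subunits, which form a related recycling complex, were at 0.863 (Vps26c, 0.668 to 1.12) and 1.01 (Vps35l, 0.814 to 1.27). Among the 14 retriever, COMMD and CCDC genes, Commd6 was 2.01-fold lower (1.25 to 3.22) at 27.7 and 13.8 CPM. In the WASH complex, which builds actin on retromer-coated endosomes, Washc2 stood at 119 and 189 CPM, 1.58-fold higher (1.32 to 1.89), and the log2 ratios of the other 4 subunits lay between -0.13 and 0.23.

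The GARP and EARP tethers bring vesicles from endosomes back to the Golgi or to recycling endosomes. Their subunits Vps51, Vps52, Vps54 and Vps50 had ratios of 0.986, 0.852, 0.99 and 0.944, all with intervals that include 1. Vps53 stood apart in value at 38.3 and 52.7 CPM, a ratio of 1.38 with an interval that starts at 1.0, and at 0.961 under upper-quartile factors. Vps72 and Vps9d1 meet the rule by name, but Vps72 encodes a histone-variant chaperone. They were at 0.866 (0.597 to 1.27) and 0.99 (0.74 to 1.33).

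Vps45 (chr3:95999832-96058466) encodes the SM protein of syntaxin 16, and its inherited loss is a known cause of severe neutropenia. It had 1953 reads in the control and 920 in the NRP2 KO library, or 29.7 and 13.7 CPM. It was 2.17-fold lower (1.36 to 3.45) and, with Snx15, just inside 2-fold among members with at least 1000 reads. Its SNARE Stx16 was at 55.1 and 51.4 CPM, a ratio of 0.932 (0.702 to 1.25).

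In the ESCRT pathway Vps37a, a subunit of the ubiquitin-reading ESCRT-I, was at 24.8 and 42.7 CPM, 1.72-fold higher (1.17 to 2.59). Its transcript is 6379 bases long, in a length class whose median log2 ratio was 0.20. The paralogues Vps37b and Vps37c, which can take its place in ESCRT-I, were at 0.864 (0.677 to 1.11) and 0.913 (0.592 to 1.43), and Vps37d had 0 and 6 reads. Tsg101 and the other measured ESCRT-I partners had log2 ratios of 0.02 to 0.53, led by Mvb12b at 1.44-fold higher (1.11 to 1.89). Vps36 of ESCRT-II was at 0.913 (0.656 to 1.28). Vps25, also of ESCRT-II, had 0 and 6 reads, and 1103 of its 1642 annotated exon bases lie inside Ramp2 on the same strand, so its count does not measure its level.

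ESCRT-III genes were split in small steps. Chmp4b, the main filament subunit and the most read Chmp gene, had 19347 and 19926 reads, or 295 and 297 CPM, a ratio of 1.01 (0.896 to 1.14). Chmp2a, which caps the filament, had 10678 and 8692 reads, 163 and 129.8 CPM, and was 1.25-fold lower (1.06 to 1.48). Its paralogue Chmp2b stood at 59.9 and 74.2 CPM, a ratio of 1.24 (0.957 to 1.62). Chmp5, which works with the VPS4 cofactor, was 1.33-fold lower (1.07 to 1.66) at 98.8 and 74.1 CPM. Chmp1a was 1.23-fold higher (1.02 to 1.49) at 112 and 137 CPM, but its interval started at 0.978 under upper-quartile factors, and the annotation holds a near-identical copy of it, Gm8515. Chmp3, Chmp6, Chmp7 and Chmp1b had ratios of 1.03 to 1.18 with intervals that include 1, and Chmp4c had 18 and 0 reads. Per kilobase of exon, Chmp4b and Chmp2a made up 29.4% and 28.3% of the family's summed level in the control library and 30.9% and 23.5% in the NRP2 KO library.

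The VPS4 ATPases, which take the filaments apart, differed from each other in value. Vps4b had 7179 and 10517 reads, 109 and 157 CPM, and was 1.44-fold higher (1.19 to 1.74), and the annotation holds a near-identical copy of it, Gm4939. Vps4a was at 42.8 and 42.4 CPM, a ratio of 0.989 (0.719 to 1.37). Of their ALIX-type partners, Ptpn23 was 1.82-fold higher (1.30 to 2.61) at 31.4 and 57.2 CPM and Pdcd6ip 1.20-fold higher (1.04 to 1.39).

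**Figure D3:**
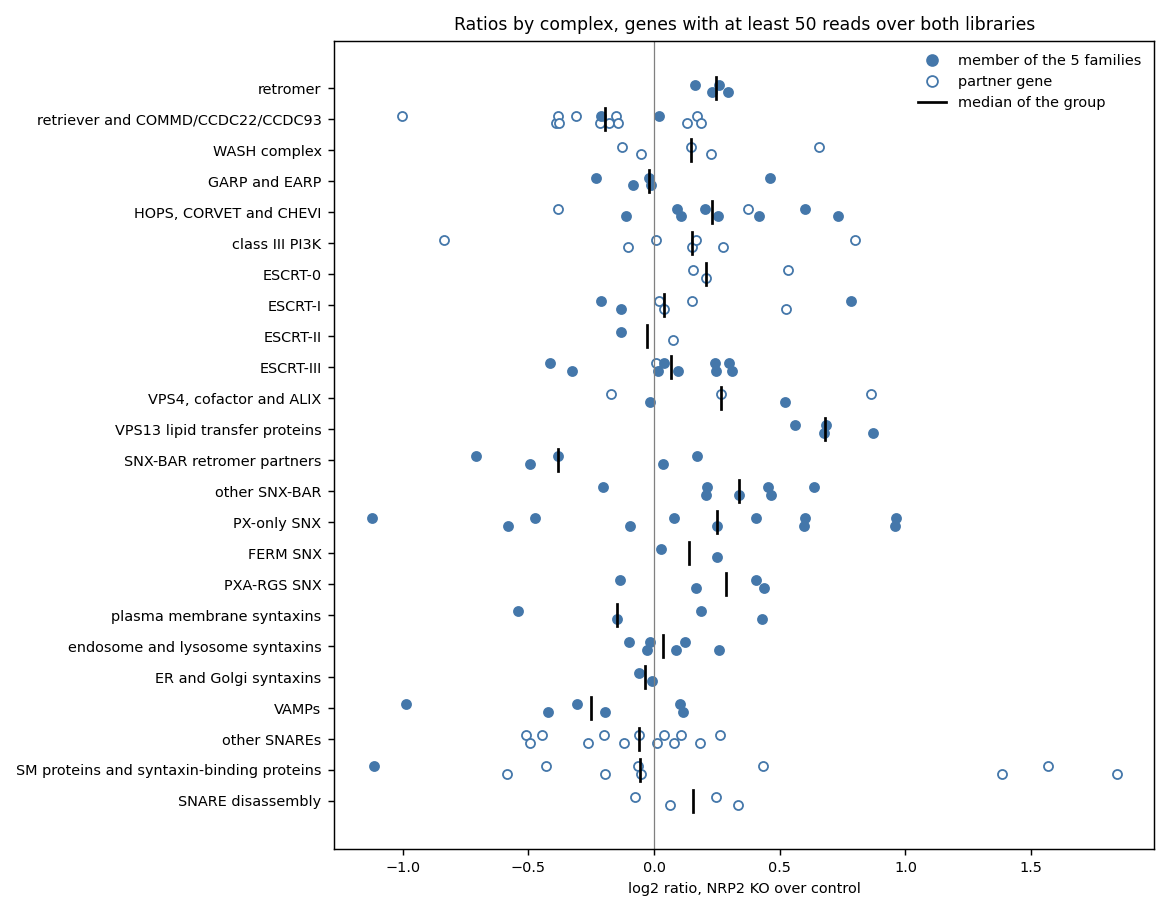
Log2 ratio (horizontal axis) of genes with at least 50 reads, in rows by complex. Filled points belong to the 5 families, open points are partner genes, and black bars are medians over all measured genes of a group. 1 member is not drawn. All 4 VPS13 genes lie right of 0.5, the retromer genes lie between 0.16 and 0.29, and Stxbp3 is the point farthest right at 1.84.

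Sorting nexins bind endosomal phosphoinositides through a PX domain, and those with a BAR domain also bend the membrane into tubules. The tubulating coat pairs SNX1 or SNX2 with SNX5 or SNX6. Snx5, the most read of all members, had 47577 and 49811 reads, or 725 and 744 CPM, a ratio of 1.03 (0.951 to 1.11). Its alternate Snx6 had 11510 and 8332 reads, 175 and 124 CPM, and was 1.41-fold lower (1.19 to 1.66). Snx2, part of which is copied inside Snx30 as Gm12543, had 23775 and 18606 reads, 362 and 278 CPM, and was 1.30-fold lower (1.16 to 1.46). Its alternate Snx1 had 10564 and 12129 reads and a ratio of 1.13 (0.96 to 1.32). In each pair one gene was lower and the other was not, with intervals of the ratio that do not overlap. Snx32, close to Snx6 in sequence, had 351 and 219 reads and an interval of 0.207 to 1.87.

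Among further nexins without a BAR domain the ratios went both ways. Snx3, which leads retromer to the Wnt carrier Wntless, had 16125 and 11836 reads, 246 and 177 CPM, and was 1.39-fold lower (1.21 to 1.60). Per kilobase of exon it stood level with Snx5 in the control library, at 174 and 173 CPM per kilobase, and below it in the NRP2 KO library, at 125 and 178. That tie depends on the divisor. The exon union of Snx5 is 4177 bases and its longest coding transcript 2512, while for Snx3 they are 1413 and 1401. In CPM, Snx5 was above Snx3 in both libraries, at 725 and 744. Snx20, a leukocyte nexin that binds the selectin ligand PSGL-1, had 7690 and 5238 reads, 117 and 78.2 CPM, and was lower by a log2 ratio of -0.58 (ratio 0.668, 0.543 to 0.823), just short of 1.5-fold. Snx10, needed by osteoclasts and linked to phagosome acidification, went the other way with 7103 and 10971 reads, 108 and 164 CPM, 1.51-fold higher (1.26 to 1.83). Snx24 was 1.52-fold higher (1.03 to 2.28) at 25.8 and 39.2 CPM. With upper-quartile factors Snx10 and Snx24 dropped under 1.5-fold, the interval of Snx24 started at 0.992, and Snx20 passed 1.5-fold lower. Snx11 and Snx12 were at 1.19 (0.795 to 1.82) and 0.937 (0.698 to 1.27), and Snx29 at 1.32 (0.707 to 2.62). The least read were Snx16 with 249 and 495 reads, Snx22 with 96 and 191 and Snx21 with 480 and 518. Their intervals include 1. Of the 2891 exon bases of Snx22, 825 lie opposite Ppib, so its reads may not all be its own if strand was not used.

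Snx15 (chr19:6119399-6128304), which carries a MIT domain beside its PX domain and acts on early endosomes, had 1618 and 757 reads. At 24.6 and 11.3 CPM it was 2.18-fold lower (1.31 to 3.65), and neither an overlapping gene nor a near-identical copy was found for it. Of the SH3-bearing nexins that act in endocytosis, Snx18 was 1.26-fold higher (1.08 to 1.49) at 156 and 197 CPM, and Snx9 and Snx33 were at 1.16 and 1.38 with intervals that include 1. Snx4, Snx7, Snx8 and Snx30 had ratios of 1.15, 1.55, 0.869 and 1.37. Of these 4, Snx30 alone had an interval above 1 (1.01 to 1.87), and Snx7, past 1.5-fold, had one of 0.927 to 2.71. Upper-quartile factors ended both calls: the interval of Snx30 then started at 0.974, and Snx7 had a log2 ratio of 0.58, under 1.5-fold.

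Cargo adaptors with a FERM domain differed little. Snx17, which recycles integrins with retriever, was at 94.5 and 96.2 CPM (ratio 1.02, 0.824 to 1.26) and Snx27, which works with retromer, at 49.0 and 58.4 CPM (1.19, 0.893 to 1.60). Snx31 was at 0 in both libraries. Of the nexins anchored in the endoplasmic reticulum, Snx13 was 1.35-fold higher (1.03 to 1.79) at 53.1 and 71.9 CPM, with an interval that started at 0.993 under upper-quartile factors. Snx14, Snx19 and Snx25 had ratios of 0.909, 1.12 and 1.33 with intervals that include 1.

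Syntaxins of endosomes and lysosomes were close to equal in both libraries. Stx7, which fuses late endosomes and is the most read syntaxin, had 14459 and 16051 reads, 220.2 and 239.6 CPM, a ratio of 1.09 (0.949 to 1.25). Stx12 of recycling endosomes was at 104 and 103 CPM, a ratio of 0.988 (0.807 to 1.22). Stx6, Stx8, Stx16 and Stx17, the last of these the autophagosome syntaxin, had ratios of 0.981, 1.06, 0.932 and 1.20. The Golgi and endoplasmic reticulum syntaxins Stx5a and Stx18 were at 0.993 and 0.96. All 8 of these syntaxins had intervals that include 1.

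Plasma membrane syntaxins were less even. Stx4a (chr7:127824294-127849019), which serves secretion at the cell surface, had 7504 and 5259 reads, 114 and 78.5 CPM, and was 1.46-fold lower (1.18 to 1.79). Stx3 went the other way, with 3636 and 5001 reads, 55.4 and 74.7 CPM, 1.35-fold higher (1.03 to 1.77). Under upper-quartile factors the interval of Stx3 started at 0.993 and Stx4a passed 1.5-fold lower. Stx2 and Stx11, the latter mutated in familial haemophagocytic lymphohistiocytosis, were at 0.902 (0.675 to 1.21) and 1.14 (0.787 to 1.66). Stx1a had 0 and 20 reads, under the floor of both libraries, and Stx19 had 0 in both.

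Among all members and partners with at least 1000 reads, the largest ratio belonged to a syntaxin-binding protein. Stxbp3 (chr3:108793176-108840526), a partner gene outside the 5 families that encodes the Munc18 protein of syntaxin 4, had 3866 and 14144 reads. At 58.9 and 211 CPM it was 3.59-fold higher (2.84 to 4.57), while Stx4a was lower. Near-identical copies were sought for members alone, so Stxbp3 was not searched for them. Stxbp4 (37 and 113 reads) and Stxbp6 (147 and 392 reads) were also past 2-fold higher, with intervals that include 1. Unc13d, a priming factor for granule release, had a log2 ratio of -0.58 and an interval of the ratio from 0.488 to 0.916. Snap23, the widely expressed partner SNARE of these syntaxins, was at 131 and 125 CPM, a ratio of 0.96 (0.80 to 1.15). Of the 13 measured SNAREs outside the families, Snap23 included, 0 passed 1.5-fold in either direction. Among the 60 partner genes with at least 1000 reads, 4 passed 1.5-fold higher and 2 passed 1.5-fold lower. For both counts, the shares over all 9054 genes with at least 1000 reads were 14.6% higher and 11.3% lower. The median log2 ratio of all 64 measured partners was 0.03. Of the 60 with at least 1000 reads, the 4 higher ones were Stxbp3, Ptpn23, Washc2 and Atg14. Atg14, which targets the class III PI3-kinase to autophagy, had an interval of 0.955 to 3.38. The 2 lower ones of the 60 were Commd6 and Rubcn, a brake on the same kinase, at 35.7 and 20.0 CPM (1.79-fold, 1.19 to 2.67).

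Vamp8, the VAMP of late endosomes and granules, was the most read of its family. It had 16576 and 13688 reads, 252 and 204 CPM, and was 1.24-fold lower (1.08 to 1.41). Vamp3, of recycling endosomes and cytokine release in macrophages, had 8997 and 8011 reads, a ratio of 0.873 (0.728 to 1.05). Together they held most of the family's level per kilobase: Vamp8 60.2% and Vamp3 26.2% in the control library, and 57.1% and 26.7% in the NRP2 KO library. No row was found for Vamp7, so these shares leave it out. Vamp2 and Vamp4 were at 1.08 (0.808 to 1.47) and 1.07 (0.776 to 1.5). Vamp5, known from muscle, lies next to Vamp8 on chromosome 6 and had 428 and 220 reads, 1.98-fold lower with an interval of the NRP2 KO over control ratio from 0.179 to 1.42. Vamp1 had 411 and 313 reads, with an interval of 0.293 to 2.0, and Vamp9 had 0 in both libraries. The order of the 7 genes with a row, by level per kilobase of exon, was the same in both libraries. That order depends on the divisor, as the exon union of Vamp1 is 10167 bases and its longest coding transcript 3011. By CPM, Vamp5 stood above Vamp1 in the control library (6.52 and 6.26) and below it in the NRP2 KO library (3.28 and 4.67).

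**Figure D4:**
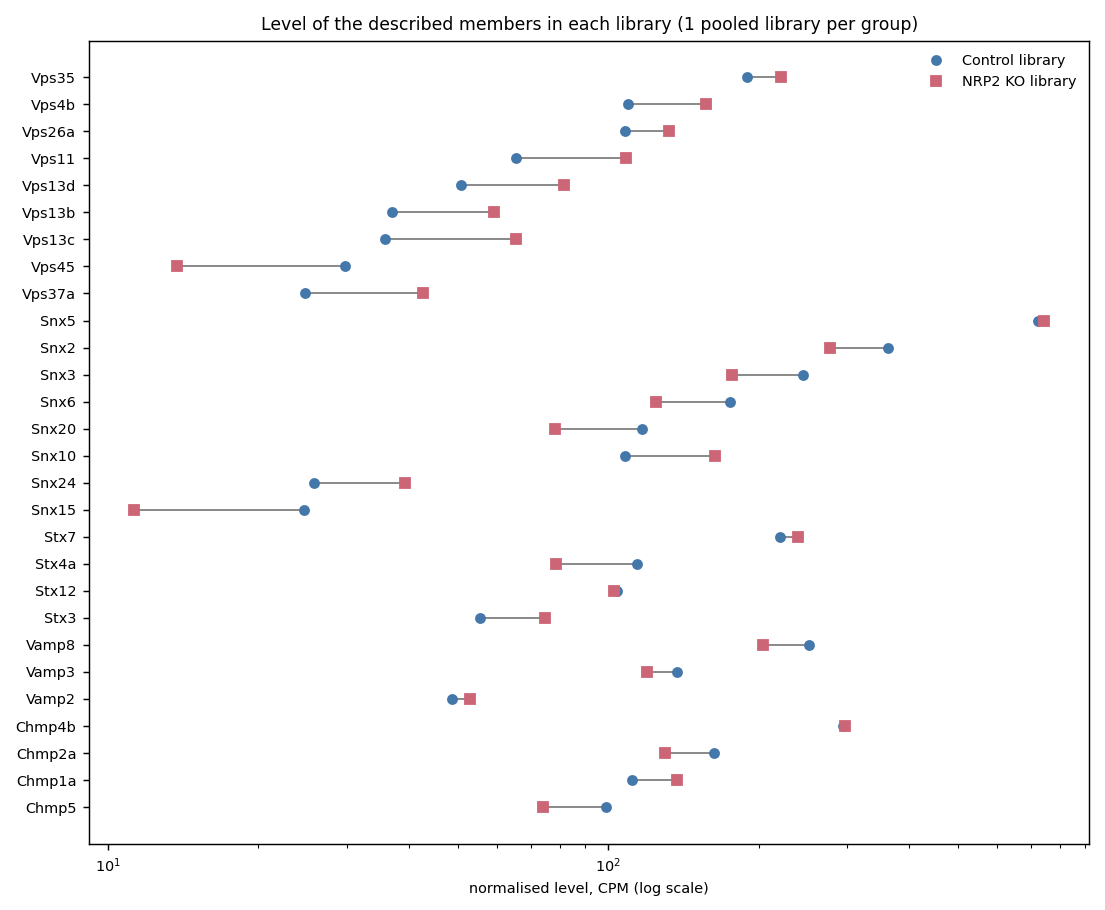
Normalised level in CPM (log axis) of the members described under the naming rule, with the control library as circles and the NRP2 KO library as squares, 1 pooled library each. Lines join the libraries of a gene. Snx5 is highest at 725 and 744 CPM, and the longest lines belong to Snx15, at 24.6 and 11.3 CPM, and Vps45, at 29.7 and 13.7 CPM.

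Chmp2a (949 bases), Snx3 (1401), Stx4a (1456) and Vps72 (1456) are the 4 members under 1500 bases with at least 1000 reads. Their median log2 ratio was -0.40, against -0.15 for all 1219 genes of that length. With the class median subtracted, Stx4a stood at -0.39, Snx3 at -0.32, Chmp2a at -0.17 and Vps72 at -0.05, and, in the next length class, Snx20 stood at -0.54 and Snx6 at -0.45.

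Markers of other cell types differed between the libraries beside these genes. Summed markers of macrophages, all 6 measured, stood at 5360 and 6260 CPM, with 1 at least 2-fold higher and 0 lower. The 10 T cell markers summed to 199 and 62.7 CPM, all 10 at least 2-fold lower, and the 6 B cell markers to 200.3 and 21.4 CPM, 5 of them lower. Conventional dendritic cell markers summed to 276 and 90.8 CPM (6 of 7 lower, Xcr1 at 0 in the NRP2 KO library). Monocyte markers summed to 1039.7 and 446 CPM (3 of 4 lower, 1 higher) and endothelial markers to 85.5 and 21.5 CPM (5 of 5 lower). NK cell markers summed to 48.6 and 17.0 CPM (3 of 5 lower), epithelial markers to 188 and 121 CPM (3 of 6) and fibroblast markers to 321 and 193 CPM (1 of 6). Neutrophil markers summed to 667 and 1003 CPM (3 of 7 measured higher, Camp and Ly6g at 0 in the control library) and adipocyte markers to 8.86 and 52.5 CPM, with Adipoq, Plin1 and Retn at 0 in the control library and Lep at 0 in both. The part of cell makeup in the ratios of Snx20, Vps45, Snx15 and the other members was not tested.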

How the data were processed

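Messenger RNA of CD11b+ tumour cells was measured in 2 libraries, 1 per group, each pooled from 3 animals. Per the labels, the kit was TruSeq stranded mRNA. Trimming, alignment and counting tools named in the submitters' processing notes are cutadapt, HISAT2 and featureCounts, on GRCm38. The sources used here state neither versions nor whether counting used the strand. The authors deposited whole-number counts per Ensembl gene. Their deposited comparison table gives a normalised signal (counts divided by 1 constant per library), a log2 fold change, a score that is this change over its error, and a p-value per gene. By the authors' deposited table, no gene had an adjusted p-value under 0.05 (the lowest was 0.331), with no design stated.

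A symbol was found for 49326 of 49585 identifiers in GENCODE M21. Library sizes were scaled with TMM factors (1.02 and 0.977) from edgeR 4.0.16 in R 4.3.3. Log2 ratios used a prior of 0.5 counts and a minimum of 50 reads summed over the libraries. A ratio quoted in the text is of CPM without the prior. Levels per kilobase use the union of annotated exons. Transcript copies of members, but not of partner genes, were sought with BLAST 2.17.0 (at least 200 bases at 95% identity). Of the members, 5 had one, and 28 shared at least 100 exon bases with another gene. The ratio and interval scripts were tested on simulated data.

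The members, the gene lists and the fragment-scaled interval were chosen with earlier results of these data known. The members described singly are, per family, the 3 most read, up to 6 with the largest ratio among those with at least 1000 reads and an interval that leaves out 1, and those past 2-fold. Of the partner genes, up to 10 past 1.5-fold with such an interval qualify. The members nearest 2-fold on either side are given too, and the rest by complex. Atg14, Vipas39, Mvb12b, Pdcd6ip, Snap23, Stxbp4, Stxbp6 and Unc13d were named after their values were seen. The values of 1 member are not reported here, though counts and medians include it. Alternatives covered scaling by DESeq2 1.42.0 size factors, upper quartiles and totals, the prior, the read filter and the interval.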

Additional observations from a re-analysis of the deposited data

How the results depend on the processing

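With TMM scaling 9 members with at least 1000 reads were at least 1.5-fold higher and 2 lower. These became 5 and 4 under upper-quartile factors and 5 and 4 with total counts, and the intervals above 1 fell from 17 to 9 under both, since both scalings lower every log2 ratio (by 0.06 and 0.07). Vps13b, Vps13c, Vps13d, Vps11 and Vps37a made up the 5, and Snx20 and Stx4a joined Snx15 and Vps45 as lower. Subtracting the median of the transcript-length class, an alternative chosen after seeing the data, left 4 higher (4.94%, against 11.5% of protein-coding genes). Intervals on undivided reads lay above 1 for 48 members and below 1 for 28. The shares over all genes for undivided reads, upper-quartile factors and total counts are not given here, so these counts have no such comparison. Without members that have a near-identical copy or an overlapping gene, 11 intervals lay above 1, with fewer genes counted, and the Stx median moved from -0.02 to 0.09. With no filter beyond 1 read, 3 members were at least 2-fold higher (Stx1a, Vps25 and Vps37d, all at 0 in the control library). By the limits set, 66 counts and family medians computed under alternatives did not move, that Stx median among them. They stayed within 1.5 times (counts) or inside a 95% order-statistic interval of the family's main median. All 136 log2 ratios of single genes stayed inside the gene's interval. The scalings moved log2 ratios by 0.07 or less and the prior moved them little, so the settings fixed that outcome in advance. The same holds for the family medians under the scalings and the prior. No paired analysis was possible because each group has 1 library, and for the same reason no library could be left out. Members under 1000 reads rest on few fragments, so differences below several-fold were not detectable for them.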
